A study of Mus musculus with 12 samples.

Results

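The comparison asked which genes, if any, responded differently to dexmedetomidine in the prelimbic (PL) and the infralimbic (IL) part of the mouse prefrontal cortex. The measure is the interaction of region and drug, that is, the effect of the drug in PL minus its effect in IL, as a log2 fold change. It was fitted for each of the 20015 expressed genes among 55421 in the deposited table, on all 12 libraries of the series, 3 per group. All mice were male wild-type C57BL/6 animals of 10 to 12 weeks that had received 3 tone and foot shock pairings at 0.7 mA. The drug groups, PL Dex and IL Dex, were injected intraperitoneally with dexmedetomidine (Dex) at 40 µg/kg in 10 ml/kg right after conditioning, and the control groups, PL saline and IL saline, with normal saline of the same volume. Tissue was collected 2 h after training and polyA RNA was sequenced. There was no group without conditioning, so every value is from conditioned mice. The sample titles name the region, whereas the extraction protocol names prelimbic tissue for all samples, and the titles were followed. Each sample also carries a batch number, equal to its sample number of 1 to 3. It is not stated in the labels if same-numbered PL and IL tissue is from a single mouse, or if each sample of a group is a different mouse. The p-values therefore rest on the spread among these 12 samples, which may be technical in part.

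Dexmedetomidine is a sedative agonist of the alpha2-adrenergic receptors, which couple to inhibitory G proteins, lower cyclic AMP and reduce noradrenaline release. In rodents, PL is best known for supporting the expression of learned fear and IL for supporting its extinction, so a drug given while a fear memory forms may act differently on each. The series title names 2 genes in astrocytes of PL: Srebf1, the gene of the lipogenic factor SREBP-1, and Phgdh, whose enzyme opens the serine synthesis pathway. A positive interaction arises when Dex raised a gene more in PL, lowered it more in IL, or both.

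Total counts were 6853832 to 8847876 in the PL libraries and 5419187 to 16530596 in the IL libraries. Markers of excitatory neurons, 12 genes, reached summed levels between 5780 and 9656 CPM (read counts scaled to a common library size). PL and IL libraries lay apart on principal component 1 (35.8% of variance). The scores were 19.6, 46.9 and 48.4 in PL saline 1, 2 and 3 and 22.5, 17.9 and 48.8 in PL Dex. In IL they were −38.4 to −29.3. Only for number 2 was the PL Dex score well below the PL saline score. Libraries also differed in how level depended on the GC content of a gene. The slope, in log2 per 10% GC relative to the mean of all libraries, was −0.258, −0.316 and −0.0767 in PL saline 1, 2 and 3 and 0.124, 0.101 and −0.0694 in PL Dex 1, 2 and 3. It was −0.00811 to 0.196 in the 6 IL libraries. Dex and saline libraries of PL thus stood apart on GC for numbers 1 and 2 and were nearly equal for number 3.

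No gene had an interaction that passed the test. The genes nearest to it differed mainly in PL. Lrrc47, Smg9, Notch1, Crocc and Srebf1 had higher mean levels in PL Dex than in PL saline, and levels in IL Dex that were lower than or about equal to IL saline. A head-to-head pair of zinc finger genes, Zfp942 and Zfp943, went the other way. With edgeR's quasi-likelihood test and Benjamini-Hochberg adjustment over the 20015 genes, 0 genes (0.0%) passed an adjusted p of 0.05, and the smallest adjusted p was 0.716. At an unadjusted p under 0.05 there were 1347 genes (6.73%), 691 with a positive interaction (3.45%) and 656 with a negative one (3.28%). DESeq2 and limma-voom also gave 0 genes, with 1232 and 1362 at an unadjusted p under 0.05. The effect of Dex on its own passed in 4 genes in PL (0.02%) and in 0 in IL (0.0%), with 2784 (13.9%) and 213 (1.06%) genes at an unadjusted p under 0.05 in edgeR. PL differed from IL in 3737 genes after saline (18.7%) and in 1469 after Dex (7.34%) at an adjusted p of 0.05 in edgeR. Those counts do not test whether the difference narrowed. They also rest on IL saline libraries that were deeper than the IL Dex libraries of the same number. The interaction, which does test it, passed in no gene.

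Among the 10575 genes with a mean of at least 10 CPM, the median absolute log2 effect of Dex was 0.17 in PL and 0.07 in IL. The median absolute interaction, 0.19, was close to its median SE of 0.199. The effects in PL and in IL were nearly unrelated across these genes (Spearman −0.0513, Pearson 0.0114, a description over genes, which are not independent replicates). The spread of the interaction thus followed the spread of the PL effect, as the plot of both effects shows.

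**Figure D1:**
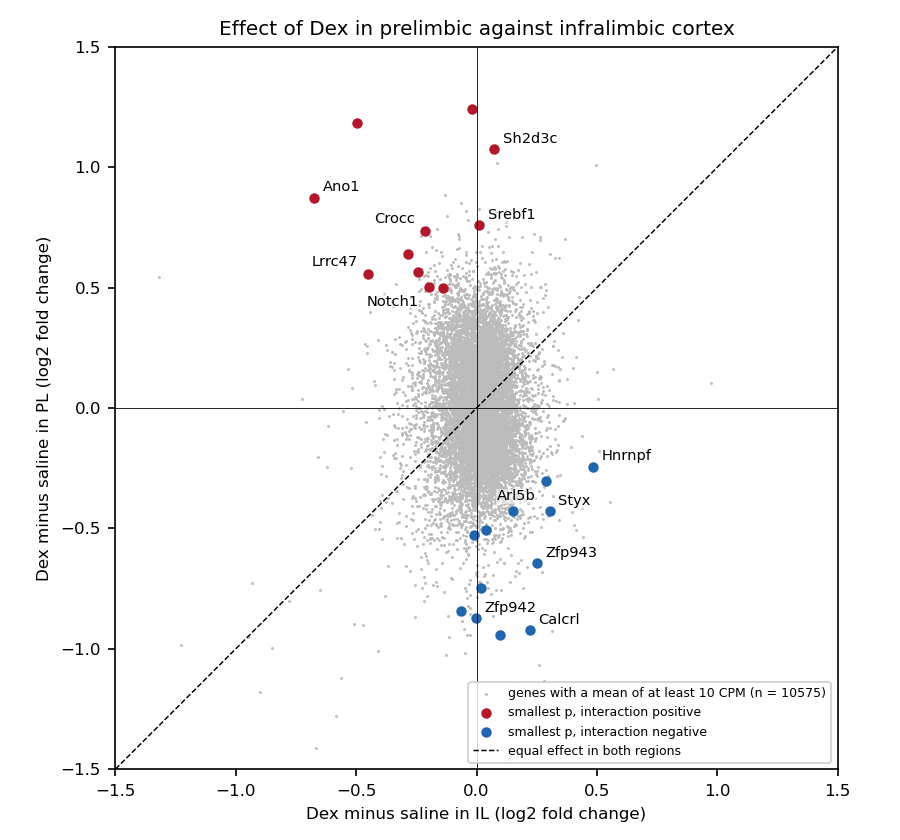
Log2 fold change of Dex against saline in PL (vertical axis) and in IL (horizontal axis) for the 10575 genes with a mean of at least 10 CPM (grey, 6 of them beyond the axes) and for 23 of the 24 genes with the smallest interaction p (red positive, blue negative; Ccdc170 lies beyond the axes). The cloud is taller than wide, and most coloured genes are farther from 0 along the PL axis than along the IL axis; the dashed line marks equal effects.

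The 12 genes with the smallest p in each direction, among genes with a name that is not a predicted one and a mean of at least 1 CPM in some group, had unadjusted p-values of 0.000112 to 0.00315 in edgeR's quasi-likelihood fit. All had an adjusted p of 0.716, so what follows describes their levels and makes no call. The PL effect was the larger in 23 of the 24, and the effects had opposite signs in 19. In all 12 genes with a positive interaction, PL saline lay below IL saline, and in all 12 with a negative one PL saline lay above IL saline. The difference between the regions was narrower after Dex in 22 of the 24. Its median went from −1.07 to −0.07 in log2 for the positive genes and from 0.51 to −0.17 for the negative ones. The PL saline libraries enter both the interaction and this gap, so the direction of the gap is partly fixed by how the genes were picked. The Dex and saline libraries did not overlap in PL for 22 of the 24 genes (14.4% of all genes tested) and in IL for 6 (7.78%), counts that the choice of genes by interaction p largely fixes.

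Lrrc47, a gene for a leucine-rich repeat protein at chr4:154011731-154021513 on GRCm38, had the smallest p of all genes. It stood at 26.7, 21.1 and 28.6 CPM in PL saline, at 39.3, 37.3 and 35.6 in PL Dex, at 42.1, 34.2 and 37.3 in IL saline and at 26.5, 23.0 and 32.8 in IL Dex. All PL Dex libraries were above all PL saline libraries, and all IL Dex libraries were below all IL saline libraries. The interaction was 1.01 (SE 0.211), from a log2 effect of 0.56 in PL and −0.45 in IL. The gene overlaps Smim1 on the opposite strand, and without strand in the counting, reads of the overlap cannot be assigned.

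Genes of cell-surface signalling were among the positive ones. Notch1, the receptor of the pathway that carries signals between neighbouring cells, stood at 32.8, 27.6 and 35.0 CPM in PL saline and 46.9, 50.7 and 37.7 in PL Dex, against 70.4, 67.6 and 64.7 in IL saline and 61.5, 54.0 and 61.2 in IL Dex. Neither pair of groups overlapped, and PL Dex remained below every IL library. Its interaction was 0.70 (SE 0.18). Plxnb1, a receptor for semaphorins, had 79.0 CPM in its highest PL saline library and 102, 99.6 and 81.9 in PL Dex, with overlapping IL groups and an interaction of 0.64. Sh2d3c and Sh2b2 encode adaptor proteins that bind activated receptors, with interactions of 1.00 and 1.26. Sh2d3c rested on PL alone: its PL Dex libraries held 23.1, 20.5 and 22 CPM, and the other 9 libraries held between 7.50 and 15.8.

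Ano1, a calcium-activated chloride channel found in smooth muscle and pericytes, had an interaction of 1.55 (SE 0.421). It was at 2.58, 2.34 and 1.21 CPM in PL saline and 3.13, 4.79 and 3.25 in PL Dex, and at 19.1, 18.3 and 10.4 in IL saline and 10.9, 9.90 and 9.22 in IL Dex. The PL groups were apart, the IL groups overlapped, and IL stayed far above PL. Col5a3, a chain of type V collagen, had an interaction of 1.68 at levels of 1.52 to 5.67 CPM. Ccdc170 was listed with 0 counts in all 3 PL saline libraries and at 0.136 to 0.680 CPM in PL Dex, so its fitted interaction of 5.75 depends on the prior count and is no measure of size.

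The remaining positive genes belonged to varied cellular functions. Smg9, a regulator of nonsense-mediated decay, had 18.8, 16.4 and 18.2 CPM in PL saline and 26.9, 29.2 and 23.0 in PL Dex, with an interaction of 0.81. Crocc, which encodes rootletin, the fibre protein of the ciliary rootlet, had 35.1, 25.4 and 31.5 CPM in PL saline and 56.6, 63.1 and 33.1 in PL Dex. In Crocc the first and second PL Dex libraries were far above saline while the third was within its range, and all IL Dex libraries, at 65.9 to 67.5, were below the IL saline libraries, at 72.3 to 84.1. Fam234a, a membrane protein gene, had an interaction of 0.92 with no overlap in either region.

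Srebf1 had rank 17 by p. It stood at 18.5, 17.6 and 20.5 CPM in PL saline, 38.5, 32.1 and 25.3 in PL Dex, 46.1, 44.6 and 44.5 in IL saline and 47.9, 37.7 and 50.5 in IL Dex. PL Dex was above PL saline in every library and below every IL library except that the highest PL Dex library passed the lowest IL Dex library by a small margin. The log2 effect was 0.76 in PL and 0.01 in IL, and the interaction was 0.75 (SE 0.211, 95% interval 0.31 to 1.19, unadjusted p = 0.00201 and adjusted p = 0.716 in edgeR's quasi-likelihood test). The gene spans chr11:60199089-60222581 on the minus strand of GRCm38, shares positions with Rai1 on the other strand, and has 3 start sites in RefSeq. The 250 bases before the start site farthest downstream, which gives the shorter protein form, SREBP-1c, are shown because that form is the target of liver X receptors and insulin in liver and the counts cannot tell the starts apart. They lie at chr11:60210472-60210721 (RefSeq, GRCm38.p6, minus strand, 70.8% GC), with matches to the liver X receptor repeat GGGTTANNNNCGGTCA and to the GC box GGGCGG on either strand in capitals.
Srebf1 upstream window: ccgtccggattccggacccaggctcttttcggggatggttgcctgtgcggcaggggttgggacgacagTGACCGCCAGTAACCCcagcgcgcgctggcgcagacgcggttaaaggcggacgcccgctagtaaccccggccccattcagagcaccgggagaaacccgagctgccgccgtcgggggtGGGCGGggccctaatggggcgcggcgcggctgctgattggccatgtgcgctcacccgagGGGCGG
The repeat is the element known from this promoter, so its 1 match was fixed by the choice of letters and is shown for orientation only. With 1 window per gene, 2 of 12176 upstream windows (0.0164%) held it, and the window used there for Srebf1, at its outermost start, held neither the repeat nor the GC box. The GC box, with 2 matches in the window shown, was in 56.2% of windows. Matches describe letters and are not evidence of binding.

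**Figure D2:**
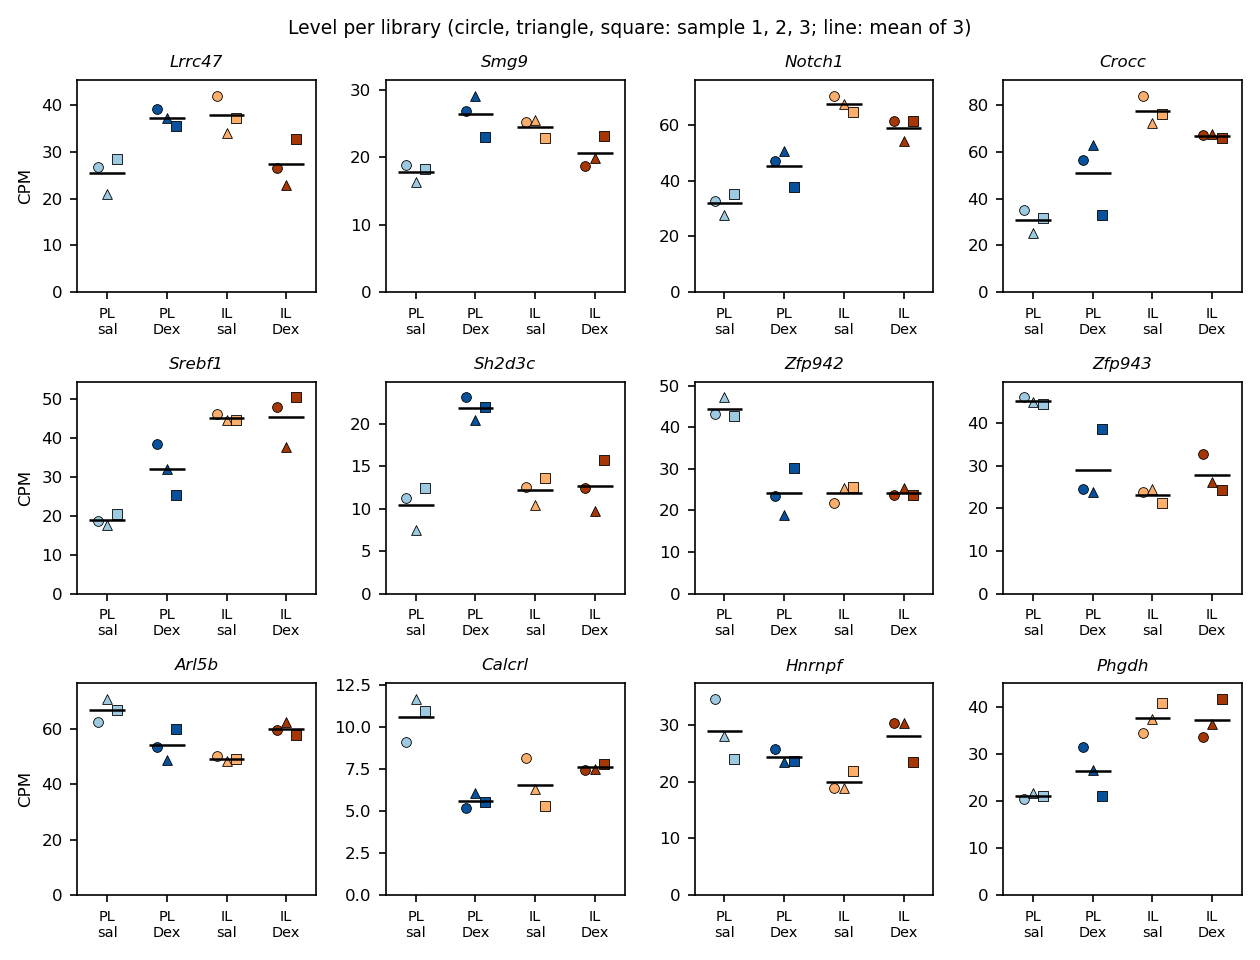
Level in CPM (vertical axis, from 0) in each of the 12 libraries for 11 of the genes with the smallest interaction p and for Phgdh, by group (horizontal axis). Black lines are means of 3 libraries, and the square, sample 3, often lies between the PL saline mean and the other PL Dex libraries, as in Crocc, Srebf1 and Zfp943.

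The negative genes were led by zinc finger genes. Zfp942 and Zfp943 encode KRAB-type zinc finger proteins, a class of transcriptional repressors, and lie head to head on chromosome 17. Zfp942 stood at 43.3, 47.2 and 42.6 CPM in PL saline and at 23.5, 18.9 and 30.2 in PL Dex, while its 6 IL libraries held 21.9 to 25.5. Zfp943 stood at 46.2, 45.1 and 44.7 CPM in PL saline and at 24.5, 23.8 and 38.6 in PL Dex, with 21.2 to 32.8 in IL. In both genes PL saline was the one group that stood apart, at about the same level, and PL Dex 3 lay closest to it. The interactions were −0.87 (SE 0.211) and −0.89 (SE 0.233). Zfp40, of the same class and chromosome, had −0.76, and its 3 PL saline libraries (40.8 to 48.8 CPM) were likewise above all others (22.1 to 33.6 CPM). Reads that fit several related zinc finger genes may have been lost or shared in counting.

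The interval between the RefSeq start sites of the pair is shown because both genes had the same pattern over the libraries and transcription of both begins at its ends. It spans chr17:21962465-21962558 (GRCm38.p6, plus strand, 94 bases, 64.9% GC), and capitals mark the E-box CACGTG, the palindromic element bound by bHLH factors such as USF, MYC and CLOCK.
Zfp942-Zfp943 interval: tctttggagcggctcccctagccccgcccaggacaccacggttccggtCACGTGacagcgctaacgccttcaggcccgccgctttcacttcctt
Over the 250 bases before the start, the E-box was in the windows of 3 of the 9 negative genes with a window, where Zfp942 and Zfp943 share one match, and in 0 of the 12 positive genes. It was in 7.95% of 12176 windows of genes tested. The cyclic AMP element TGACGTCA, a palindrome like the E-box, was in 1 of the 9 and 0 of the 12, against 2.62%. The median GC content of these windows was 62.2% for the positive genes, 56.8% for the negative ones and 59.6% for all.

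Arl5b, a small GTPase of the trans-Golgi network, stood at 62.4, 70.9 and 66.8 CPM in PL saline and 53.3, 48.8 and 59.9 in PL Dex, and at 50.0, 48.4 and 48.9 in IL saline and 59.7, 62.6 and 57.9 in IL Dex. The groups were apart in both regions and in opposite directions, and the interaction was −0.59 (SE 0.153). Calcrl, the receptor component for CGRP and adrenomedullin, had 9.11, 11.7 and 11 CPM in PL saline, 5.17, 6.10 and 5.56 in PL Dex and 5.30 to 8.19 in IL. Its PL groups did not overlap, and the interaction was −1.14 (SE 0.305). Hnrnpf, an RNA-binding splicing factor, was the exception in which the larger difference was in IL: IL Dex held 30.3, 30.3 and 23.5 CPM against 18.9, 18.9 and 21.8 in IL saline, with overlapping PL groups and an interaction of −0.73.

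Of the other negative genes, Styx (a pseudophosphatase, −0.73), Ppp4r3b (a regulatory subunit of protein phosphatase 4, −0.55), Orc4 (a subunit of the origin recognition complex, −0.58), Cox16 (an assembly factor of cytochrome c oxidase, −1.04) and Fam204a (−0.78) all had PL Dex below PL saline in every library. Their IL groups overlapped. Orc4 shares positions with Acvr2a and Mbd5, Styx with Gnpnat1 and Cox16 with other genes, and altogether 17 of the 24 genes overlapped another annotated gene.

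Opposite and complete separation of Dex from saline in the 2 regions was rare: PL Dex above and IL Dex below in 49 genes (0.245%) and the reverse in 39 (0.195%), 88 genes in all (0.44%). By smallest p these were Lrrc47, Notch1, Arl5b, Fam234a, Dop1b and Xrcc3. Dop1b, which belongs to a family of endosomal trafficking proteins, showed the tightest groups, with 119, 120 and 124 CPM in PL saline, 155, 165 and 148 in PL Dex, 147, 145 and 146 in IL saline and 141, 138 and 139 in IL Dex. Its effect was 0.37 in PL and −0.07 in IL, and the interaction 0.44 (SE 0.126). Xrcc3, a gene of homologous recombination, had 2.81 to 4.11 CPM in PL saline against 4.88 to 8.13 after Dex, and 9.58 to 10.5 CPM in IL saline against 8.91 to 9.15 after Dex. Its interaction was 1.07. Pmvk, an enzyme of the mevalonate pathway, also separated in both regions, with an interaction of 0.46 (SE 0.215).

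The interaction moved with GC content across genes. Over the 10573 genes with at least 10 CPM and a known GC content, the Spearman correlation of GC with the interaction was 0.695, with the PL effect 0.739 and with the IL effect −0.0812 (descriptions across genes that share the same 12 libraries). In the 1058 genes with the lowest GC, median 38.7%, the median interaction was −0.32, and 0 genes had a positive and 247 a negative interaction at an unadjusted p under 0.05. In the 1058 genes with the highest GC, median 59.4%, the median was 0.27, with 166 positive and 0 negative. The 12 positive genes named above had a median GC of 58.2% and the 12 negative ones of 37.9%. With an offset for GC fitted in each library, the medians of these lowest and highest sets were −0.03 and 0.01. The offset takes out any trend of level with GC in a library, so medians near 0 follow from its construction. It would also take out a Dex effect that ran with GC. The genes at an unadjusted p under 0.05 in edgeR were then 574 (2.87%) in place of 1347. Of the 1347, 381 (28.3%) kept their sign and an unadjusted p under 0.05, which is 66.4% of the 574.

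**Figure D3:**
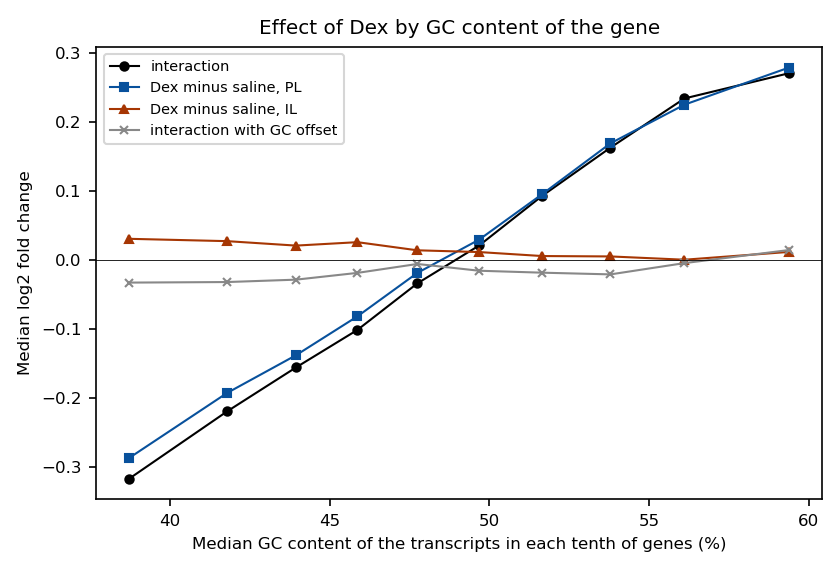
Median log2 fold change (vertical axis) in 10 sets of 1057 or 1058 genes ordered by transcript GC content (horizontal axis, median GC in %), for the interaction, the effect of Dex in PL, the effect in IL and the interaction with a GC offset per library. The interaction line lies on the PL line from −0.32 to 0.27, and the IL line and the offset line stay near 0. The offset line does so by construction.

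The sample numbers did not contribute equally. Taken as a double difference of log2 CPM within each number, the median absolute interaction of the genes with at least 10 CPM was 0.28 for number 1, 0.36 for number 2 and 0.14 for number 3. The correlation with GC was 0.674, 0.679 and −0.217 in the same order, and the double difference of the GC slope was 0.418, 0.464 and −0.0484. In 23 of the 24 named genes all 3 numbers had the same sign (2842 genes, 14.2%, were positive and 2675, 13.4%, negative in all 3 over the genes tested). A small interaction p favours a shared sign, so nothing is read from that count. In 22 of the 24 number 3 was the smallest. Srebf1 had 0.99, 1.10 and 0.12, Notch1 0.71, 1.19 and 0.18, and Zfp40 −0.90, −1.41 and −0.03. Plxnb1, at −0.10 in number 3, was the gene whose signs differed. Calcrl, with −0.67, −1.16 and −1.5, and Ano1, with 1.06, 1.84 and 1.46, were not smallest in number 3. With the GC offset all 24 kept their sign, 22 became smaller and 22 had an unadjusted p under 0.05 in edgeR. Values with the offset were 0.76 for Lrrc47, 0.48 for Srebf1, 0.45 for Notch1, 1.43 for Ano1 and −0.74 for Hnrnpf. The 24 were chosen by a small p in the same libraries, which favours a kept sign and a low p. Nothing is read from those counts. Whether GC differences between libraries account for the interactions was not tested.

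The gene lists hold 31 pathways, cell types and classes, with 694 tested entries in all. For all genes tested the median interaction was 0.00 with 50.0% positive. At an unadjusted p under 0.05 in edgeR, 3.45% of all genes tested were higher and 3.28% lower. The counts of list members below are to be read beside these shares. For fatty acid synthesis, the pathway that SREBP-1 controls, 18 of 25 genes were positive, the median interaction was 0.12, and 3 higher and 1 lower had an unadjusted p under 0.05. These were Srebf1, Thrsp, a lipogenic regulator (0.92), Fasn, the fatty acid synthase (0.38), and Elovl6, an elongase (−0.38). Fasn held 269, 244 and 325 CPM in PL saline, 394, 384 and 302 in PL Dex, 324, 321 and 361 in IL saline and 311, 301 and 385 in IL Dex. Of the PL Dex libraries, the third lay within the saline range while the others lay above, and its interaction by number was 0.61, 0.74 and −0.20. For the genes that process SREBP proteins 6 of 8 were positive, with a median of 0.20: Scap, the escort protein that carries SREBPs to the Golgi, had 0.41 (SE 0.16), and Srebf2, which drives cholesterol genes, 0.32 (SE 0.16). With the GC offset the medians were 0.07 for fatty acid synthesis and 0.06 for SREBP processing.

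Cholesterol synthesis and uptake did not follow in its median: 8 of 23 genes were positive and the median was −0.04. At an unadjusted p under 0.05 in edgeR, 3 were higher and 1 lower, the same counts as for fatty acid synthesis. Mvk, mevalonate kinase, had 0.63 and Hmgcs1, which makes HMG-CoA, −0.36. Serine synthesis and one-carbon metabolism had 6 of 16 positive and a median of −0.04. Phgdh stood at 20.3, 21.8 and 21.1 CPM in PL saline, 31.6, 26.6 and 21.0 in PL Dex, 34.5, 37.5 and 40.9 in IL saline and 33.7, 36.5 and 41.8 in IL Dex. The first and second PL Dex libraries were above PL saline, the third was within it, and IL did not separate. Its interaction was 0.33 (SE 0.207, 95% interval −0.10 to 0.76), with 0.66, 0.32 and −0.04 by number and 0.07 with the GC offset. Shmt2, the mitochondrial serine hydroxymethyltransferase, had 0.62 (SE 0.271).

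Immediate early genes, which neurons switch on within minutes of activity, had 24 of 36 positive and a median of 0.21, with 4 higher and 1 lower at an unadjusted p under 0.05. Btg2, an antiproliferative early gene, was at 20.7, 23.5 and 18.1 CPM in PL saline and 27.1, 33.7 and 43.8 in PL Dex, with 32.7 to 41.0 in IL. PL saline was below every other library, and the interaction of 0.65 (SE 0.226) was largest in number 3 (0.39, 0.42 and 1.11) and 0.62 with the GC offset. Fos, the standard marker of recent activity, stood at 24.6, 22.5 and 24.3 CPM in PL saline and 42.3, 33.4 and 32.9 in PL Dex, and IL held 27.5 to 35.6 CPM after saline and 32.6 to 37.2 after Dex. Its interaction was 0.49 (SE 0.194). Atf3, a stress-induced factor, went the other way at very low levels, 0.468 to 2.78 CPM in PL saline and 0 to 0.435 in PL Dex. The median of the list with the GC offset was 0.00.

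Clock genes, with 9 of 21 positive and a median of −0.11, gave values of both signs. Per1, which is both a clock and an immediate early gene, had 0.47, while Nr1d2, the repressor REV-ERB beta, had −0.47, Bhlhe41 −0.43 and Clock −0.31. Nr1d2 stood at 178, 173 and 160 CPM in PL saline, 113, 103 and 129 in PL Dex, and 105 to 123 in IL, so PL saline alone was high. Glucocorticoid-responsive genes, a list that also holds the receptors Nr3c1 and Nr3c2, had 12 of 17 positive and a median of 0.15. Zbtb16, a zinc finger factor among them, had 0.40 with 0.43, 0.90 and −0.08 by number.

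**Figure D4:**
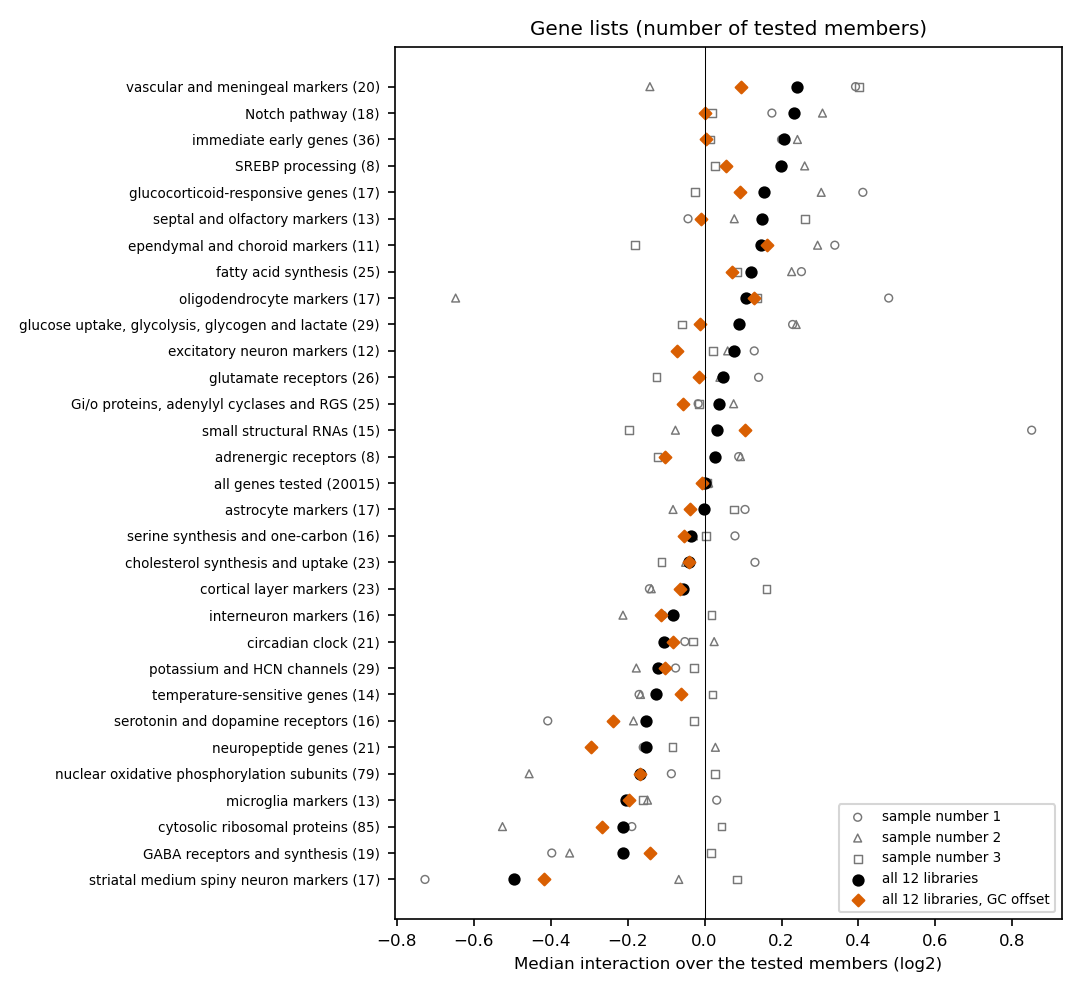
Median interaction in log2 (horizontal axis) over the tested members of each list (number in brackets), for all 12 libraries (black), with the GC offset (orange) and within each sample number (open symbols); blood cell markers are not drawn. Most lists lie between −0.25 and 0.25, and the medians of numbers 1 and 2 are often on one side while number 3 is near 0.

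The lists of receptors and effectors of the drug had median interactions of −0.12 to 0.04. Of the 8 adrenergic receptors 4 were positive, the median was 0.03, and 0 had an unadjusted p under 0.05. Adra2a, the main target of the drug in cortex, named here for that role, had −0.06 (SE 0.345), and Adra2c, another alpha2 receptor, 0.35 (SE 0.343). The SE of Adra2a exceeded its interaction and that of Adra2c about equalled it, so neither interaction was large against its SE. Gi/o proteins, adenylyl cyclases and RGS proteins had 14 of 25 positive, a median of 0.04 and 0 genes at an unadjusted p under 0.05. With the GC offset the medians of these 2 lists were −0.10 and −0.06. Potassium and HCN channels, through which Gi/o signals and cyclic AMP set excitability, had 11 of 29 positive and a median of −0.12, with 1 higher and 4 lower at an unadjusted p under 0.05. Kcnma1, the BK channel, had −0.32, Kcnq3, of the M current, −0.36, and Kcnt1, a sodium-activated channel, 0.53.

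GABA receptors and synthesis had 5 of 19 positive and a median of −0.21, with 0 higher and 3 lower at an unadjusted p under 0.05, and −0.14 with the GC offset. The receptor subunits Gabrg1 (−0.68) and Gabrg3 (−0.36) were among the lower ones. Gabrg1, a subunit found in astrocytes, stood at 37.2, 41.7 and 31.0 CPM in PL saline and 22.2, 17.1 and 27.7 in PL Dex, with 38.7 to 56.7 in IL. PL Dex was below all other libraries, and by number the interaction was −0.62, −1.20 and −0.23. The median GC content of the list, 44.0%, was below the 48.4% of all genes tested. Glutamate receptors had 14 of 26 positive and a median of 0.05, or −0.02 with the GC offset. Serotonin and dopamine receptors had 6 of 16 positive and a median of −0.15, with −0.41, −0.18 and −0.03 by number. That median ran from −0.36 to 0.04 over the alternative settings without the GC offset. Neuropeptide genes had 4 of 21 positive and a median of −0.15, with −0.16, 0.03 and −0.08 by number. Drd1 and Drd2 of the receptors and Penk, Pdyn and Tac1 of the neuropeptides are also on the list of striatal markers given below.

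The Notch pathway had 10 of 18 positive, a median of 0.23 and 3 higher at an unadjusted p under 0.05: Notch1, Notch2 (0.46) and the ligand Jag2 (0.55). Jag2 was at 27.2, 28.8 and 31.4 CPM in PL saline and 41.9, 43.8 and 34.0 in PL Dex, with 38.1 to 45.6 in IL. The mean level of these 3 genes was lowest in PL saline, and with the GC offset the median of the pathway was 0.00.

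Genes of protein synthesis and respiration leaned to negative values. Cytosolic ribosomal proteins had 14 of 85 positive and a median of −0.21, and nuclear subunits of oxidative phosphorylation had 19 of 79 positive and a median of −0.17. These medians were −0.27 and −0.17 with the GC offset. By number, the ribosomal median was −0.19, −0.53 and 0.04, so that number 2 carried most of it. The summed level of the 85 genes was 4311, 5146 and 5368 CPM in PL saline, 4079, 3773 and 5566 in PL Dex, 4345, 5335 and 5011 in IL saline and 4495, 5553 and 5067 in IL Dex. The groups overlapped in both regions, with PL Dex 2 the lowest library and PL Dex 3 the highest. Few single members had a low p: 0 ribosomal genes were higher and 1 lower at an unadjusted p under 0.05. Glucose metabolism had 19 of 29 positive and a median of 0.09, which became −0.01 with 14 of 29 positive under the GC offset, and temperature-sensitive genes had 5 of 14 positive and a median of −0.13.

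Markers of other cells and tissues varied between libraries as well. Astrocyte markers, the cells named in the series title, had 8 of 17 positive and a median of −0.00. Gfap, the filament protein of reactive astrocytes, stood at 48.0, 47.9 and 34.4 CPM in PL saline and 78.6, 59.4 and 54.2 in PL Dex, with overlapping IL groups at 67.3 to 93.2, and an interaction of 0.61 (SE 0.218). PL saline was the lowest group again. Fgfr3, a receptor that marks astrocytes, had 0.41. Other markers of the list did not share this pattern: the median effect of Dex in PL was 0.03 with 9 of 17 positive, and Slc1a2, the main glutamate transporter of astrocytes, held 5960, 6201 and 5612 CPM in PL saline and 5571, 4430 and 6058 in PL Dex, with overlapping groups. For any marker, a change in the number of cells and a change in RNA per cell cannot be told apart in bulk tissue. Microglia markers had a median of −0.21 with 5 of 13 positive. It was 0.03, −0.15 and −0.16 by number and −0.20 with the GC offset. Vascular and meningeal markers had a median of 0.24 with 13 of 20 positive. It was 0.39, −0.14 and 0.40 by number and 0.09 with the GC offset. Oligodendrocyte markers, with a median of 0.11, had 0.48, −0.65 and 0.14 by number, and their summed level in PL Dex ran from 2260 CPM in library 2 to 5672 in library 1.

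Markers of striatal medium spiny neurons, which are outside the cortex, had the lowest median after blood cell markers, −0.50 with 5 of 17 positive. Their summed level was 1198, 540 and 553 CPM in PL saline and 751, 572 and 520 in PL Dex, while IL held 1669 to 2056 after saline and 1604 to 2456 after Dex. PL saline 1 thus held the most of them in PL, and the median interaction was −0.73, −0.07 and 0.08 by number. Without PL saline 1 the median of the list was 0.48, so its sign rested on that library. Tac1, one of these markers, was at 43.0, 11.7 and 14.5 CPM in PL saline and 9.76 to 10.7 in PL Dex. Isl1, another, was at 7.74, 0.234 and 0.121 in PL saline. Whether tissue at the border of the dissection contributed to the interactions was not tested. All 17 markers were detected in some library, and 2, Gpr6 and Isl1, had libraries at 0. Ependymal and choroid markers summed to 8.0 to 17.8 CPM in PL and 28.1 to 68.2 in IL. Ccdc153 among them was at 0 in all 3 PL saline libraries. Blood cell markers, 5 tested, were all negative with a median of −0.87, and IL Dex 2 held the highest sum, 150.5 CPM, against 49.1 to 106.7 in the other libraries.

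The list of small structural RNAs, most of which lack a polyA tail but which also holds the protein-coding Lars2 and the spliced host transcript Snhg12, had 8 of 15 positive and a median of 0.03, and single members varied widely. Gm22317 had 41.8, 56.2 and 220 CPM in IL saline and 3.39, 15 and 9.04 in IL Dex, with 3.25 to 23.3 in PL, and a fitted interaction of 2.36 with an SE of 1.36. Rn7s6 had the same form, 2.03 with an SE of 1.23.

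Leaving out 1 library changed the answer in a single case. Without PL Dex 3, 144 of 20997 genes passed an adjusted p of 0.05 in edgeR's quasi-likelihood test, 38 positive and 106 negative. An unadjusted p under 0.05 in the same test was seen in 3455. The median GC content was 58.0% for the 38 and 39.8% for the 106. The called genes included 12 of the 24 named above, Crocc, Zfp943, Zfp942, Notch1, Zfp40, Lrrc47, Srebf1, Arl5b, Col5a3, Smg9, Ppp4r3b and Plxnb1. The 24 were chosen by a small p in a fit that held the same libraries, so this overlap is largely fixed by that choice. Srebf1 then had an interaction of 0.90 with an adjusted p of 0.0416 in edgeR, and Notch1 of 0.82 with 0.0395. A fit with the GC offset as well was added after the data were seen. In that fit 0 genes passed in edgeR, with a smallest adjusted p of 0.0919 and 1859 genes at an unadjusted p under 0.05. Without each of the other 11 libraries 0 genes passed in edgeR, with 878 (without PL saline 2) to 1886 (without PL saline 3) at an unadjusted p under 0.05. PL Dex 3 was the PL Dex library whose GC slope, −0.0694, was close to that of its same-numbered saline library, −0.0767. The slopes of PL saline 1 and 2 were lower, at −0.258 and −0.316. In IL, the slopes of Dex and saline libraries of the same number differed by −0.0360, −0.0461 and 0.0557. Nothing in the labels sets PL Dex 3 apart, so it was kept.

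**Figure D5:**
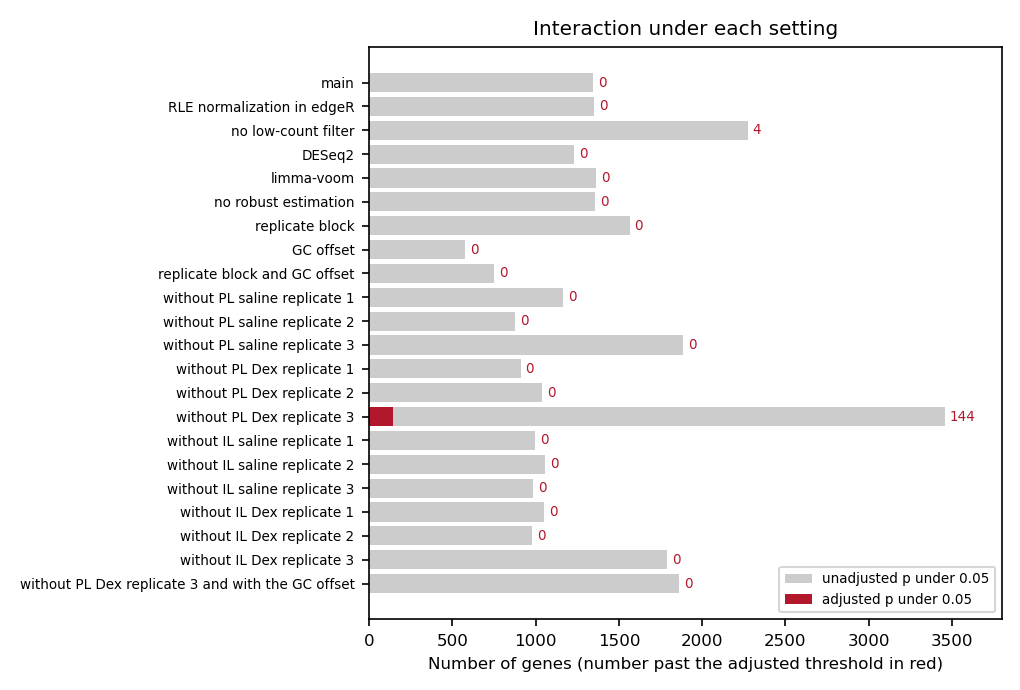
Number of genes (horizontal axis) with an unadjusted p under 0.05 for the interaction (grey bars) and past an adjusted p of 0.05 (red, number printed) with the reported fit and under 21 alternative settings. The red count is 0 except with no filter on low counts (4) and without PL Dex replicate 3 (144).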

How the data were processed

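PolyA RNA-seq libraries of 4 groups of 3 were compared. The authors deposited whole-number counts per gene, made per the file headers with featureCounts 2.0.1 on exons by gene identifier, paired-end, with no strand option, from release 98 of the GRCm38 gene models. HISAT2, SAMtools 1.8, Trim Galore and bcl2fastq are listed per the submitters' processing notes, which give the build as mm39. Coordinates of 54948 of the 55240 genes shared with GENCODE M21 were equal, so GRCm38 is used here. The 12 count columns that matched no sample were not used. All 37 mitochondrial genes had 0 counts. A symbol was found for 55154 of 55421 genes.

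From these counts edgeR 4.0.16 (R 4.3.3) was run with filterByExpr, TMM factors (0.935 to 1.05) and a robust quasi-likelihood fit with 1 mean per group (8 residual degrees of freedom, common biological coefficient of variation 0.143). The interaction was PL Dex minus PL saline minus IL Dex plus IL saline, tested two-sided with Benjamini-Hochberg adjustment over 20015 genes at 0.05. Levels are CPM on TMM-scaled libraries, with a prior count of 2 where log2 CPM is used. Alternatives were RLE scaling, no filter, DESeq2 1.42.0, limma 3.58.1 (voom), no robust estimation, the sample number as a block, a GC offset (a spline with 4 degrees of freedom per library on the GC of the longest transcript, known for 99.9% of genes), both, and leaving out each library. The scripts were tested on simulated counts.

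The batch number in the labels equals the sample number. Numbers were taken as pairs only for the differences within each number and for the block setting. The reported fit did not pair libraries. Deviations from group means correlated at 0.284 to 0.337 between IL libraries of the same number, against −0.202 to −0.105 for different numbers. Within PL these values were 0.00858 to 0.108 against −0.133 to 0.0711. Across regions they were −0.0983 to 0.191 against −0.124 to 0.0990. Deviations within a group sum to 0, so positive values for the same number go with negative ones for different numbers.

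Named genes are Srebf1 and Phgdh, the 12 smallest p in each direction, up to 4 members per list by p, and up to 6 that separate in opposite directions in both regions; not all are printed, and some are not reported here. The members and lists were chosen with earlier results of these data known. Adra2a was added outside the rule. The shallowest library, IL Dex 1, held 5419187 counts.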

Additional observations from a re-analysis of the deposited data

How the results depend on the processing

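Among 21 alternative settings, the number of genes past an adjusted p of 0.05 was 0 under RLE scaling, DESeq2, limma-voom, no robust estimation, the GC offset and both fits with the replicate block. It was 4 of 38950 with no filter on low counts, and 0 to 144 when 1 library was left out, where 144 came without PL Dex replicate 3. The 4 were Crocc, Lrrc47, 2210418O10Rik and Gm23238, chosen after their values were seen. The fit without PL Dex replicate 3 and with the GC offset is among the 21 and was added after the data were seen. It gave 0 genes. The number at an unadjusted p under 0.05 was 2272 with no filter, 574 with the GC offset, 748 with the replicate block and GC offset, and 878 to 3455 when 1 library was left out (878 without PL saline replicate 2). The cause was not tested.

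With the sample number as a replicate block, which pairs the libraries, 1564 genes had an unadjusted p under 0.05 and the smallest adjusted p was 0.631 in edgeR, and the block changed no call. The 60 genes given with values in the text had 1260 values under the alternatives. Of these, 15 over 13 genes passed an adjusted p of 0.05, all with no filter or without PL Dex replicate 3, and 4 had the other sign. Those 4 were of Adra2a, whose interaction ran from −0.25 to 0.31 when 1 library was left out. Of 651 list medians, 65 differed from the reported one by more than the SD of the 3 sample numbers. The striatal median ran from −0.66 to 0.48 over the alternatives without the GC offset, and the medians of immediate early genes and the Notch pathway were 0.00 with it. The median SE of the interaction was 0.303 over all genes tested and 0.199 over those with at least 10 CPM.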
